A study of Homo sapiens with 6 samples.

Results

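MicroRNA processing and silencing genes were followed in human ovarian cancer cell lines transfected with miR-135a-3p or with miR-blank. Of 10 listed genes, 6 had a probe set named in the platform annotation, and each had 1 probe set: DGCR8, XPO5, TARBP2, TNRC6A, TNRC6B and TNRC6C. The other 4 (AGO1, AGO3, AGO4 and DROSHA) were not analysed here. The 6 genes were among the 8620 named genes tested, and every one of their signals lay above the array median on all 6 arrays.

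The lines were SKOV-3, ES-2 and OVCAR-3, established lines labelled as ovarian cancer. Each gave 1 array after miR-135a-3p, the 3′ arm of the hairpin of miR-135a, and 1 array after miR-blank, the control, which makes 3 arrays per transfection and 2 per line. Neither the dose and form of the transfected RNA nor the harvest time is given in the sources used here. Values are log2 signals as deposited, where 1 unit is a 2-fold step, and the signals of different probe sets cannot be set against each other.

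MicroRNAs are cut from long transcripts in the nucleus by the Microprocessor, in which DGCR8 holds the RNA for the nuclease DROSHA. Exportin-5, the product of XPO5, carries the hairpins to the cytoplasm, where the Dicer partner TARBP2 helps to cut and load them into an Argonaute protein. The glycine- and tryptophan-rich TNRC6 proteins (TNRC6A, TNRC6B and TNRC6C) bind the loaded Argonaute and recruit the deadenylases that silence the target.

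The transfected microRNA and the other arm of the same hairpin are shown because they have different seeds, the bases 2 to 8 that pair with targets, here in capitals. Both are from RefSeq (GRCh38.p14), on the minus strand at chr3:52294232-52294253 for the 3p arm and chr3:52294270-52294292 for the 5p arm, written 5′ to 3′.
hsa-miR-135a-3p: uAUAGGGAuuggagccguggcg
hsa-miR-135a-5p: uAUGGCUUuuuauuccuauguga
The hairpin gene MIR135A1 served as a check of the labels. It read 11.58, 12.57 and 12.20 in SKOV-3, ES-2 and OVCAR-3 after miR-135a-3p, against 2.07, 1.75 and 2.26 after miR-blank. The miR-blank signals lay below the lower quartile of every array (2.79 at its lowest), so the size of the difference depends on the array floor, and the gene passed the filter through the transfected arrays alone.

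Array medians lay between 4.16 and 4.23, and precision is limited by how few arrays there were. Log2 differences between the transfections spread more over genes in SKOV-3 (SD 0.48) than in ES-2 (0.30) or OVCAR-3 (0.30). The transfection means of DGCR8 and TNRC6C are therefore also given without SKOV-3. For the cofactors, only counts of calls are given with a line or an array left out. The epithelial keratin KRT18 read between 9.36 and 10.47 on all arrays. The epithelial surface marker EPCAM read between 3.78 and 4.32, near the array medians, and PAX8, a Mullerian lineage factor, was above 5 in SKOV-3 alone.

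The design first asks whether the machinery differed after transfection with miR-135a-3p. None of the 6 genes passed the test. limma, with the line as a block, called 0 of 6 at an adjusted p under 0.05 and 0 of 6 at an unadjusted p under 0.05, where it called 0.0116% and 2.91% of all genes tested. The 1 gene called at the adjusted threshold was MIR135A1, the hairpin gene of the transfected microRNA. None of the 6 had the same sign in all 3 lines, against 23.0% of all genes. The median of their mean log2 differences was −0.09, against −0.01 over all genes tested.

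DGCR8, the RNA-binding partner in the Microprocessor, read 6.70, 6.07 and 5.99 in SKOV-3, ES-2 and OVCAR-3 after miR-135a-3p, against 6.43, 6.31 and 6.66 after miR-blank. The transfected arrays ran both above and below the control arrays. The log2 difference was −0.67 in OVCAR-3, a signal 1.59-fold lower, which 2.52% of all genes matched or passed in size in that line. It was −0.25 in ES-2 and 0.27 in SKOV-3, sizes that 28.8% and 46.0% of genes matched or passed. The mean was −0.22 ± 0.47 (SD, n = 3), with a limma 95% confidence interval from −0.69 to 0.26 and an adjusted p of 0.999. Without OVCAR-3 it was 0.01, and without SKOV-3 −0.46.

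XPO5, the hairpin export receptor, read 8.77, 9.08 and 8.11 in SKOV-3, ES-2 and OVCAR-3 after miR-135a-3p, against 8.93, 8.99 and 8.43 after miR-blank. The groups overlapped. The largest difference was in OVCAR-3 (−0.33), a size that 19.4% of all genes matched or passed in that line. It was −0.16 in SKOV-3 and 0.10 in ES-2, sizes that 66.1% and 65.3% of genes matched or passed. The mean was −0.13 ± 0.21 (SD, n = 3), with an interval from −0.48 to 0.22 (limma adjusted p 0.999). Leaving out 1 line gave −0.24 without ES-2, and −0.03 without OVCAR-3.

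TARBP2, the Dicer partner, was the most even of the 6 genes, with 6.32, 6.29 and 6.08 in SKOV-3, ES-2 and OVCAR-3 after miR-135a-3p, against 6.19, 6.21 and 6.18 after miR-blank. All 6 arrays lay within a span of 0.25 log2 units. The mean difference was 0.03 ± 0.12 (SD, n = 3), with an interval from −0.29 to 0.35 (limma adjusted p 0.999).

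Among the silencing scaffolds, TNRC6A read 7.09, 7.40 and 7.17 in SKOV-3, ES-2 and OVCAR-3 after miR-135a-3p, against 6.92, 7.06 and 7.37 after miR-blank. It was higher after miR-135a-3p in SKOV-3 (0.17) and ES-2 (0.34) and lower in OVCAR-3 (−0.20). The mean difference was 0.10 ± 0.27 (SD, n = 3; interval −0.27 to 0.48; limma adjusted p 0.999), and it was −0.02 without ES-2 and 0.25 without OVCAR-3. TNRC6B gave 7.31, 7.47 and 8.55 after miR-135a-3p, against 7.45, 7.39 and 8.63 after miR-blank. Its arrays paired closely within each line, with differences of −0.14, 0.08 and −0.07 in SKOV-3, ES-2 and OVCAR-3 and a mean of −0.05 ± 0.11 (SD, n = 3; interval −0.37 to 0.27; limma adjusted p 0.999).

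TNRC6C had the widest spread of the 6 genes over the transfection. After miR-135a-3p it read 7.08 in SKOV-3, 5.85 in ES-2 and 5.59 in OVCAR-3, against 6.29, 6.32 and 6.33 after miR-blank. The control arrays were nearly level (SD 0.02, n = 3), while the transfected arrays spread on either side of them (SD 0.80, n = 3). The log2 difference was 0.80 in SKOV-3, 1.74-fold higher, and 7.10% of all genes matched or passed that size in SKOV-3. It was −0.47 in ES-2, 1.38-fold lower, with 6.88% of genes at least as far from 0, and −0.74 in OVCAR-3, 1.67-fold lower, with 1.67%. The mean was −0.14 ± 0.82 (SD, n = 3; interval −0.84 to 0.57; limma adjusted p 0.999). Without SKOV-3 the mean was −0.60, with a limma adjusted p of 0.594, and it was 0.03 without ES-2 and 0.16 without OVCAR-3. With 1 array per transfection in a line, the differences within lines have no replicate check.

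Of 5 genes listed as leukocyte markers 2 were named, CD68 and TYROBP, and both differed within the SKOV-3 pair. CD68 read 10.20 after miR-135a-3p and 7.96 after miR-blank in SKOV-3, and TYROBP 5.87 and 5.17. The summed linear signal of both ranged from 199.3 to 1239 over the miR-135a-3p arrays and from 236.5 to 1392 over the miR-blank arrays, with 1239 and 285.7 in SKOV-3. CD68 was also high on the ES-2 arrays, at 10.15 after miR-135a-3p and 10.40 after miR-blank. Whether these 2 genes mark leukocytes here was not tested. The other leukocyte markers were not analysed here. All 4 tested epithelial or Mullerian markers were past 1.5-fold between the arrays of SKOV-3, a size that 15.4% of all genes reached. The keratins KRT8 and KRT18 read 6.07 and 9.95 after miR-135a-3p, against 5.45 and 9.36 after miR-blank. The lineage factors WT1 and PAX8 read 7.15 and 8.12 after miR-135a-3p, against 6.14 and 8.80 after miR-blank, so 3 of the 4 markers were higher and PAX8 lower. None of the 3 mesenchymal markers passed that size in SKOV-3. VIM and ZEB1 read 10.13 and 7.26 after miR-135a-3p, against 9.60 and 6.77 after miR-blank, while FN1 was lower (4.75 against 5.04). The part of these markers in the TNRC6C value was not tested.

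**Figure D1:**
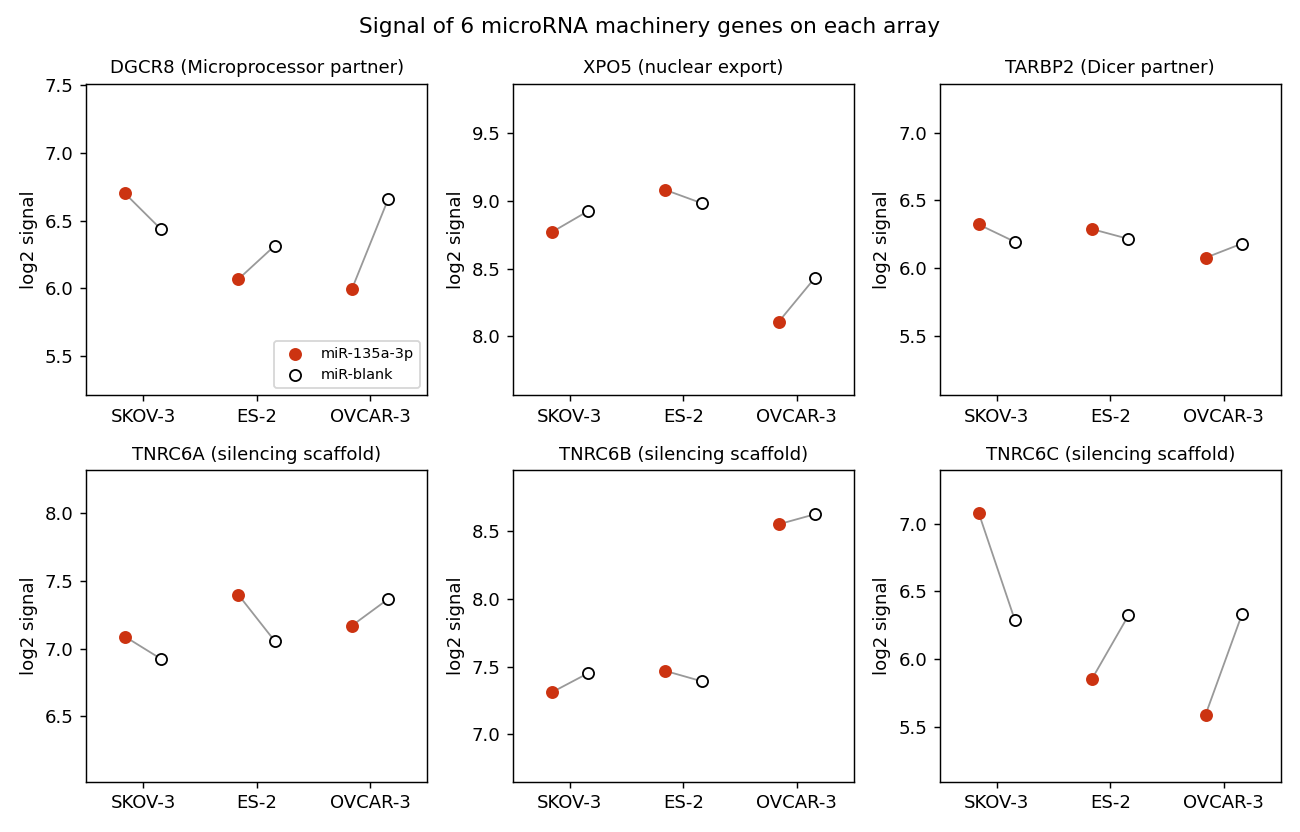
Log2 signal (y axis, the same span in every panel) of the 6 genes in SKOV-3, ES-2 and OVCAR-3 (x axis), 1 point per array, with filled points for miR-135a-3p, open points for miR-blank and a line joining the arrays of a cell line. TNRC6B stood at 8.55 and 8.63 in OVCAR-3, above its 4 other arrays, and TNRC6C was level after miR-blank and spread after miR-135a-3p.

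Past 1.5-fold, in either direction, were 2 of 6 genes in OVCAR-3 (DGCR8 and TNRC6C, both lower), 1 of 6 in SKOV-3 (TNRC6C, higher) and 0 of 6 in ES-2. The same size was reached by 3.92%, 15.4% and 3.46% of all genes in these lines. DGCR8 and TNRC6C had the same signs, lower in ES-2 and OVCAR-3 and higher in SKOV-3, a pattern held by 19.0% of all genes tested. Past 1.5-fold lower in OVCAR-3 and higher in SKOV-3, as TNRC6C was, were 0.464% of genes. Whether the transfection effect differed between lines was not tested, because each line had 1 pair of arrays.

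**Figure D2:**
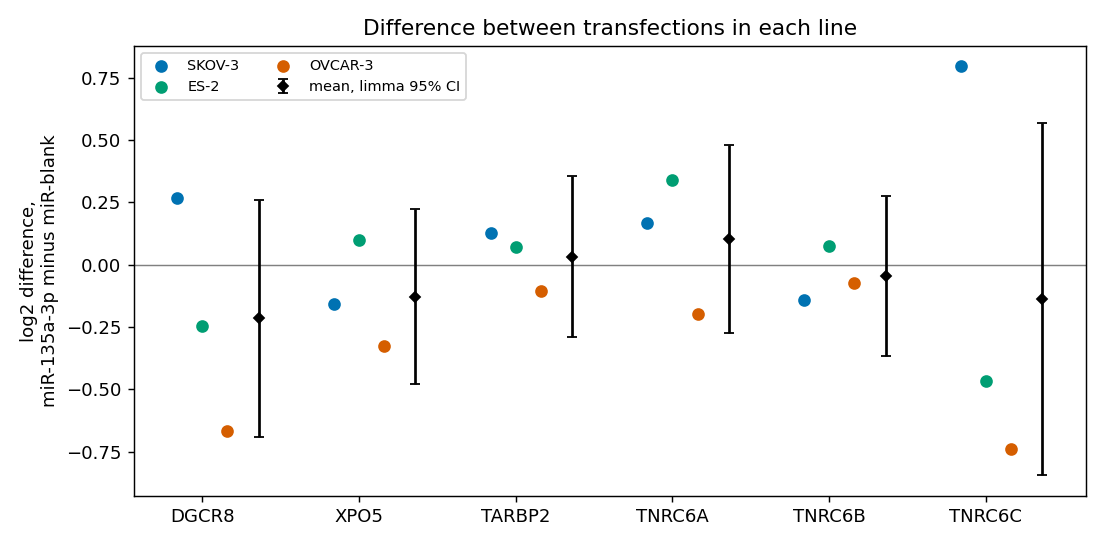
Log2 difference, miR-135a-3p minus miR-blank (y axis), of each gene (x axis) in SKOV-3, ES-2 and OVCAR-3 (coloured points), with the mean over the 3 lines and its limma 95% confidence interval (black). Every interval includes 0, and the points of TNRC6C run from −0.74 in OVCAR-3 to 0.80 in SKOV-3.

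The second comparison the samples allow is between the lines, with the transfection as a block. Its error comes from the 2 arrays that each line gave, 1 per transfection. It therefore holds any difference of the transfection effect between lines as well as noise, and the SD of a line spans both transfections. Nothing in the labels says that the arrays came from separate cultures, so this scatter may not cover variation between independent cultures. OVCAR-3 stood apart for a silencing scaffold, TNRC6B, which was higher there than in either other line, and for the export receptor XPO5, which was lower there than in ES-2. limma called 2 of the 6 genes in at least 1 line comparison (33.3%), where it called 44.1% of all genes. For ES-2 against OVCAR-3 it called 2 of 6 (29.2% of all genes), for SKOV-3 against OVCAR-3 1 of 6 (25.6%), and for SKOV-3 against ES-2 0 of 6, with 0 of 6 at an unadjusted p under 0.05 (23.0% of all genes at the adjusted threshold). The median range of the line means was 0.55 for the 6 genes and 0.58 for all genes tested.

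TNRC6B averaged 7.38 ± 0.10 in SKOV-3, 7.43 ± 0.05 in ES-2 and 8.59 ± 0.05 in OVCAR-3 (SD, n = 2 each). Both OVCAR-3 arrays lay above all 4 others. SKOV-3 was lower than OVCAR-3 by a log2 difference of −1.21, 2.31-fold, with an interval from −1.60 to −0.82 (limma adjusted p 0.00316). The ES-2 signal was likewise lower than that of OVCAR-3, by −1.16, 2.23-fold, with an interval from −1.55 to −0.77 (limma adjusted p 0.00304). SKOV-3 minus ES-2 was −0.05, with an interval from −0.44 to 0.34. Both calls held with any 1 array left out, with values from −1.28 to −1.14 and from −1.25 to −1.07 (limma adjusted p at most 0.0495 and 0.0458). A higher signal in OVCAR-3 than in both other lines was called for 6.53% of all genes.

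XPO5 averaged 8.85 ± 0.11 in SKOV-3, 9.03 ± 0.07 in ES-2 and 8.27 ± 0.23 in OVCAR-3 (SD, n = 2 each), with both OVCAR-3 arrays below the others. ES-2 was higher than OVCAR-3 by 0.76, 1.70-fold, with an interval from 0.33 to 1.19 (limma adjusted p 0.0214). SKOV-3 minus OVCAR-3 was 0.58 with an interval from 0.15 to 1.01 and was not called (limma adjusted p 0.0588). It was called without the block (0.0414), after quantile (0.0462) or cyclic loess normalization (0.0481) and with an intensity trend (0.0496), and not called in the other alternatives, which included no filter (adjusted p 0.0849) and any 1 array left out (0.43 to 0.72, adjusted p 0.0600 to 0.370). SKOV-3 minus ES-2 was −0.19, with an interval from −0.61 to 0.24. The ES-2 call was lost without the miR-135a-3p array of ES-2 (0.59, limma adjusted p 0.242) or of OVCAR-3 (0.61, adjusted p 0.204), and without the miR-blank array of ES-2 (0.93, adjusted p 0.0634) or of OVCAR-3 (0.91, adjusted p 0.0868).

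The 250 bases before the RefSeq start of TNRC6B and XPO5 are shown because these genes differed between the lines, in opposite directions in OVCAR-3. Capitals mark matches on either strand to a CCAAT box (CCAAT), a GC box (GGGCGG), an ETS site (CCGGAAG) or a TATA box (TATAAA). The TNRC6B window is chr22:40044584-40044833 on the plus strand and the XPO5 window chr6:43576039-43576288 on the minus strand, both GRCh38.p14 and written 5′ to 3′.
TNRC6B: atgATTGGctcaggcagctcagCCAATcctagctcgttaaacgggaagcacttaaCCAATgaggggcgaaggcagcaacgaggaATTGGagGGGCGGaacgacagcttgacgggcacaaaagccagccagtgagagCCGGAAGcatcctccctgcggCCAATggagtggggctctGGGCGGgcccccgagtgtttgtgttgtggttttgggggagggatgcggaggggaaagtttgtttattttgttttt
XPO5: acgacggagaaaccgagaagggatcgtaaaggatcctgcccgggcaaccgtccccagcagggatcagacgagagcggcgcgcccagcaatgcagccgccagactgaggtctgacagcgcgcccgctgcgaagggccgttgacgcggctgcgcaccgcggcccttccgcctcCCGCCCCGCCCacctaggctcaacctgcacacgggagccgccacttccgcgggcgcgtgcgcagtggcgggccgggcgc
The TNRC6B window held 5 CCAAT matches, 2 GC boxes and 1 ETS site. XPO5 held 2 GC boxes, which overlap by 1 base, and none of the other motifs. Of 35116 windows of this length before RefSeq starts, 32.0% held at least 1 CCAAT match and 0.319% at least 5, while 42.6% held a GC box and 8.52% the ETS site. The TATA box was in 10.7%. The DGCR8 window held 4 CCAAT matches and 2 GC boxes, and 0.874% of windows held at least 4 CCAAT matches. The cut-offs of 4 and 5 matches are the counts of these 2 genes themselves. The windows of the other genes held from 0 to 3 CCAAT matches. All 6 genes had a window, 11 in all, since TARBP2 had 3 starts and TNRC6C 4. These matches describe the letters of the window and were not tested against the signals.

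The other 4 genes were not called between any lines. DGCR8 averaged 6.57 ± 0.19 in SKOV-3, 6.19 ± 0.17 in ES-2 and 6.33 ± 0.47 in OVCAR-3 (SD, n = 2 each), and its largest difference was 0.38 for SKOV-3 minus ES-2 (interval −0.21 to 0.96, limma adjusted p 0.314). TARBP2 averaged 6.26 ± 0.09, 6.25 ± 0.05 and 6.13 ± 0.07, and 94.3% of all genes had at least as wide a range of line means. TNRC6A averaged 7.01 ± 0.12, 7.23 ± 0.24 and 7.27 ± 0.14, with −0.26 for SKOV-3 minus OVCAR-3 (interval −0.72 to 0.20, limma adjusted p 0.363), and that value ranged from −0.49 to −0.037 with 1 array left out. No neighbouring lines in the order of these genes were shown to differ beyond their spread. TNRC6C averaged 6.68 ± 0.56, 6.09 ± 0.33 and 5.96 ± 0.52, with 0.73 for SKOV-3 minus OVCAR-3 (interval −0.14 to 1.59, limma adjusted p 0.191) and 0.60 for SKOV-3 minus ES-2 (adjusted p 0.284). These TNRC6C values rest on the SKOV-3 arrays. Without its miR-blank array they were 1.43 (limma adjusted p 0.000812) and 1.30 (adjusted p 0.00177), and without its miR-135a-3p array 0.03 (adjusted p 0.936) and −0.10 (adjusted p 0.741). DGCR8 for SKOV-3 minus ES-2 was 0.74 without that miR-blank array (limma adjusted p 0.0293) and 0.015 without the miR-135a-3p array of SKOV-3 (adjusted p 0.966).

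Within the TNRC6 family the means ran in different orders. The only calls were for TNRC6B, higher in OVCAR-3 than in each other line, while SKOV-3 and ES-2 were not told apart. For ES-2 minus OVCAR-3, TNRC6C had 0.13 (interval −0.74 to 0.99) and TNRC6A −0.04, and neither was called. The miR-blank arrays of TNRC6C were nearly level, at 6.29, 6.32 and 6.33 in SKOV-3, ES-2 and OVCAR-3. Its lowest mean, in OVCAR-3, came from the miR-135a-3p array there (5.59). By the smallest root mean square distance of the centred signals over the 6 arrays, the tested gene most like TNRC6B was YOD1, a deubiquitinase, at 0.08 log2 units. YOD1 read 4.92, 5.27 and 6.20 in SKOV-3, ES-2 and OVCAR-3 after miR-135a-3p, against 5.09, 5.19 and 6.39 after miR-blank. For XPO5 it was CFDP1, a chromatin remodelling subunit, at 0.06 log2 units, with 7.56, 7.79 and 6.82 against 7.67, 7.59 and 7.13.

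**Figure D3:**
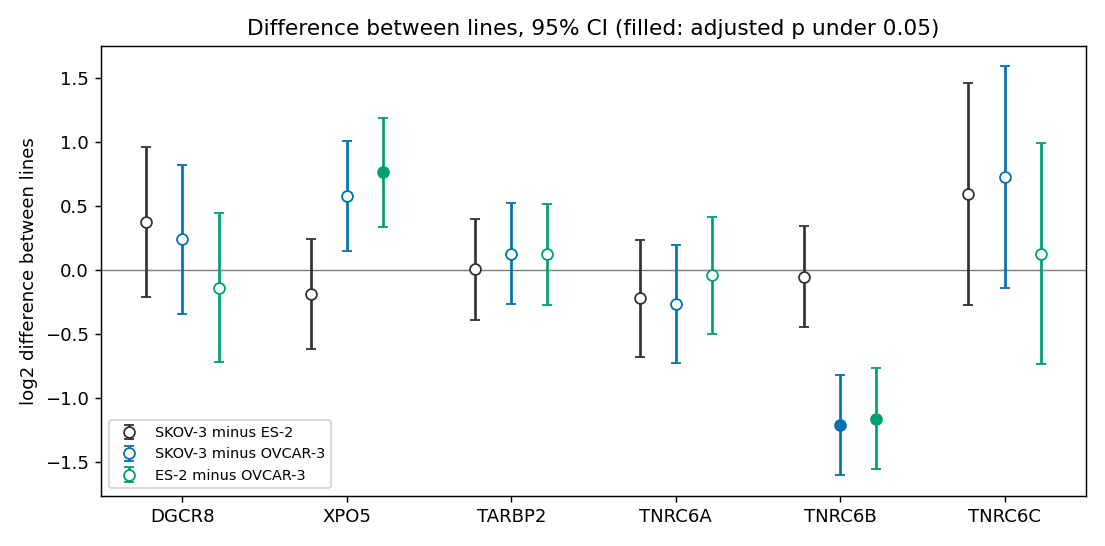
Log2 difference between lines (y axis) for each gene (x axis) with limma 95% confidence intervals, filled where the adjusted p was under 0.05. TNRC6B lies at −1.21 and −1.16 for the comparisons with OVCAR-3, and XPO5 at 0.76 for ES-2 minus OVCAR-3.

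Other genes of the pathway were read from lists of cofactors, of which 46 of 81 genes were named and 40 tested. After miR-135a-3p limma called 0 of these 40, against 0.0116% of all genes. At an unadjusted p under 0.05 it called 1 of 40, against 2.91% of all genes. A lower signal in all 3 lines was held by 8 of 40 (20.0%), against 13.4% of all genes, and a higher signal by 2 of 40 (5%), against 9.54%. Their median mean difference was −0.08, with medians of 0.01 in SKOV-3, −0.02 in ES-2 and −0.18 in OVCAR-3. Over all genes these medians were 0.02, −0.01 and −0.05. In at least 1 line comparison limma called 20 of 40 (50%), against 44.1% of all genes, and the count ranged from 10 to 25 with 1 array left out.

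The gene at an unadjusted p under 0.05 was HENMT1, the methyltransferase of piRNA ends, with differences of 0.67 in SKOV-3, 0.60 in ES-2 and 0.61 in OVCAR-3 (limma adjusted p 0.999). Both of its ES-2 signals (2.86 after miR-135a-3p and 2.26 after miR-blank) lay near or below the array's lower quartile (2.82) and were not shown to be above background. The nuclear cofactors had a median of −0.12 over 6 genes. They included the Microprocessor helicase DDX17, at −0.72 in SKOV-3, 0.02 in ES-2 and −0.24 in OVCAR-3, and SRRT, which links capped RNA to processing, at −0.25, −0.07 and −0.34. Of the deadenylation genes 3 of 4 were lower in all 3 lines, namely PAN2 (mean −0.22), PAN3 (−0.21) and CNOT9 (−0.09), all with a limma adjusted p of 0.999. The same held for 13.4% of all genes, and for 1 of 6 nuclear, 0 of 4 dicing, 2 of 8 tailing, 2 of 12 decapping and 0 of 6 partner genes. PAN2 and PAN3 form the deadenylase that starts shortening poly(A) tails, and CNOT9 is the CCR4-NOT subunit that binds TNRC6 tryptophans. The nuclease SND1 had −0.26, the decapping enzyme DCP2 −0.23, its scaffold EDC4 −0.16 and the RNA-binding protein PUM2 −0.15, none of them called.

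Counts of calls between the lines are given by list as a description, since 44.1% of all genes were called and each list is short. None of the 6 nuclear cofactors was called (0 of 6), and the widest difference was −0.58, for DDX17 in ES-2 minus OVCAR-3, with a limma adjusted p of 0.0903. The helicase DDX5 had 0.33 for SKOV-3 minus OVCAR-3 and ERH, a Microprocessor partner, −0.32 for ES-2 minus OVCAR-3. Of 4 dicing and loading cofactors 3 were called (44.1% of all genes). IPO8, an importin that binds Argonaute, averaged 9.38 in SKOV-3, 7.82 in ES-2 and 7.81 in OVCAR-3, and was higher in SKOV-3 by 1.56 and 1.57 (limma adjusted p 0.00185 and 0.00134). The chaperone HSPA4 was lower in SKOV-3 by −0.82 and −0.98 against the same lines (limma adjusted p 0.0144 and 0.00618), and the HSP90 co-chaperone FKBP5 was higher in SKOV-3 than in ES-2 by 0.81 (adjusted p 0.0173).

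Among 8 tailing and turnover genes 6 were called (44.1% of all genes). HENMT1 passed the filter through SKOV-3 and OVCAR-3, and no test against its low ES-2 signals is given. It averaged 7.36 in SKOV-3 and 5.46 in OVCAR-3, higher in SKOV-3 by 1.91 (limma adjusted p 0.000461). ZSWIM8, a ubiquitin ligase receptor of microRNA decay, was lower in SKOV-3 than in OVCAR-3 by −1.12 (limma adjusted p 0.00839), as was SND1 by −0.69 (adjusted p 0.0278). The nuclear exonuclease XRN2 was lower in SKOV-3 than in ES-2 by −0.96 (limma adjusted p 0.00844) and higher in ES-2 than OVCAR-3 by 0.82 (adjusted p 0.0109).

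LIN28A, which blocks processing of let-7 precursors, fell below the filter on the mean signal and was chosen after its values were seen. It read 3.62, 3.76 and 7.30 in SKOV-3, ES-2 and OVCAR-3 after miR-135a-3p, against 3.31, 3.41 and 7.96 after miR-blank. Only the OVCAR-3 arrays lay above the array median. In the fit with no filter it was lower than in OVCAR-3 by −4.17 in SKOV-3 and −4.05 in ES-2 (limma adjusted p 0.000246 and 0.000181), where the sizes depend on the floor of the array. Its paralog LIN28B, also below the filter, read 3.34, 4.58 and 3.63 after miR-135a-3p, against 3.57, 4.37 and 3.66 after miR-blank. In the same fit LIN28B had 0.83 for ES-2 minus OVCAR-3 and −1.02 for SKOV-3 minus ES-2 (limma adjusted p 0.0231 and 0.0134). Only its ES-2 signals lay above the array median, and they were not shown to be above background. The Piwi-clade genes PIWIL1, PIWIL3 and PIWIL4, Argonautes of the germ line, read between 2.28 and 4.42, and none was tested.

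Of 4 deadenylation genes 2 were called (44.1% of all genes). PAN2 was higher in SKOV-3 than in ES-2 and OVCAR-3 (1.03 and 1.09, limma adjusted p 0.00892 and 0.00599), and PAN3 higher in ES-2 than OVCAR-3 (0.67, adjusted p 0.0233). Of 12 decapping and repression genes 7 were called (44.1% of all genes). DCP2, like TNRC6B, was highest in OVCAR-3, lower than there by −1.05 in SKOV-3 and −0.97 in ES-2 (limma adjusted p 0.00744 and 0.00878). GIGYF2, a translational repressor, was lower in ES-2 than OVCAR-3 (−1.16, limma adjusted p 0.00266) and higher in SKOV-3 than in ES-2 (0.78, adjusted p 0.0173). The exonuclease XRN1 was higher in ES-2 than OVCAR-3 (1.02, limma adjusted p 0.0162), and EDC4 higher in SKOV-3 than in ES-2 (0.88, adjusted p 0.0207).

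Of 6 binding partners of Argonaute 2 were called (44.1% of all genes), the LIM-domain proteins WTIP and AJUBA. WTIP was higher in SKOV-3 than in ES-2 (1.69, limma adjusted p 0.00432) and lower in ES-2 than OVCAR-3 (−1.05, adjusted p 0.0172), and AJUBA was higher in ES-2 than OVCAR-3 (0.95, adjusted p 0.0286). FMR1, the fragile X RNA-binding protein, had 0.88 for SKOV-3 minus ES-2 and was not called (limma adjusted p 0.0538). LIMD1, another LIM-domain protein, had −0.54 for the same comparison and was not called (limma adjusted p 0.0711).

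**Figure D4:**
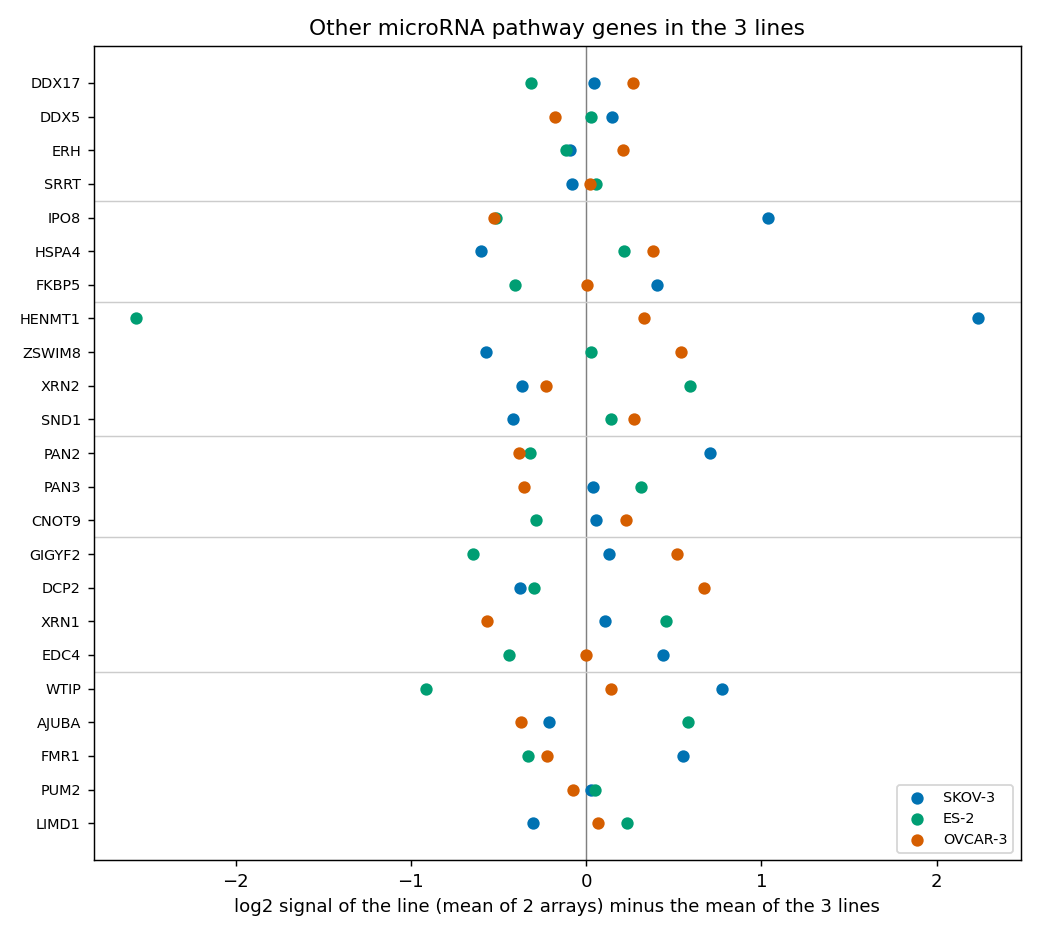
Log2 signal of each line (mean of 2 arrays) minus the mean of the 3 lines (x axis) for the named pathway genes (y axis), with grey rules between the lists. HENMT1, at 7.36 in SKOV-3 and 2.56 in ES-2, spans a wide range, with ES-2 signals below the array median and not shown to be above background.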

How the data were processed

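RNA of 6 transfected samples was hybridised to Affymetrix arrays after whole-transcript labelling, per the labels' protocols. The deposited table gave a log2 signal for each of 53617 probe sets. The submitters' processing notes name RMA, Transcriptome Analysis Console 3.0 and Affymetrix Expression Console 1.4, with roles not stated. RMA equalises the array distributions, so a shift of most genes would be removed. No detection calls were used.

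Names came from the platform annotation and RefSeq GRCh38.p14, joined by Entrez identifier: 16098 had 1 symbol, 0 several, and 37519 were unnamed here. The probe set with the highest mean was kept for each of 14884 symbols. Genes with a mean of at least 5 were tested with limma 3.58.1 in R 4.3.3 (lmFit, eBayes, two-sided, Benjamini-Hochberg over 8620 genes, adjusted p under 0.05), and the procedure was checked on simulated data. Arrays from the same cell line form a pair. Their deviations from the group means correlated at 0.76 (SKOV-3), 0.90 (ES-2) and 0.91 (OVCAR-3).

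Members, lists, tests and alternatives were chosen with earlier results of these data known. All named members were described. Of each cofactor list, the 3 genes with the widest range of line means and the 2 with the largest mean transfection difference were named, with the gene most like each called member. Alternatives were no filter on the mean or one of 6, no block, array medians made equal, quantile or cyclic loess normalization, an intensity trend, the mean over probe sets, a 2-fold minimum, and each line or array left out. Motifs were searched in the 250 bases before each RefSeq start. AGO1, AGO3, AGO4 and DROSHA were not analysed here.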

Additional observations from a re-analysis of the deposited data

Results flagged for a closer look

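TNRC6C was at least 1.5-fold higher in SKOV-3 and at least 1.5-fold lower in OVCAR-3, a size chosen after the values were seen. Its log2 difference, miR-135a-3p minus miR-blank, was 0.80 in SKOV-3 and −0.74 in OVCAR-3. With 1 array per line and transfection, the difference between these lines was not tested.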

How the results depend on the processing

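For the transfection, limma called 1 gene over all, MIR135A1, the hairpin gene of the transfected microRNA. With a line left out it called from 1 to 4 genes (4 without SKOV-3). It called none of the members and none of the cofactors tested under any alternative run. That included the fit without the replicate block, where DGCR8 kept its −0.22. The number of cofactors tested changed with the filter. With a line left out, the mean differences ranged from −0.46 to 0.0099 for DGCR8, −0.016 to 0.10 for TARBP2, −0.016 to 0.25 for TNRC6A, −0.11 to 0.00093 for TNRC6B and −0.60 to 0.16 for TNRC6C. Under the alternatives that kept all lines, each member kept its sign. Between lines, the 3798 genes, 20 cofactors and 2 members called in at least 1 comparison became 2175, 8 and 1 (TNRC6B) with a 2-fold minimum. With 1 array left out they ranged from 1967 to 5064 genes, 10 to 25 cofactors and 1 to 4 members. Fits with an array left out have fewer samples, and the lone array of a line is assumed to vary like the others. TARBP2 for SKOV-3 minus ES-2 (0.0064) turned to −0.036 after quantile and −0.014 after cyclic loess normalization, and TNRC6A for ES-2 minus OVCAR-3 to 0.023 after cyclic loess. The cause was not tested. With 1 array left out, ES-2 minus OVCAR-3 ranged from −0.47 to 0.20 for DGCR8, −0.27 to 0.18 for TNRC6A, −0.32 to 0.58 for TNRC6C and 0.59 to 0.93 for XPO5. SKOV-3 minus ES-2 ranged from −0.066 to 0.079 for TARBP2, −0.14 to 0.042 for TNRC6B, 0.015 to 0.74 for DGCR8, −0.40 to −0.042 for TNRC6A, −0.35 to −0.016 for XPO5 and −0.10 to 1.30 for TNRC6C. SKOV-3 minus OVCAR-3 ranged from −0.12 to 0.60 for DGCR8 and −0.49 to −0.037 for TNRC6A. Without detection calls, a low signal cannot be told from background.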
